A study of Mus musculus with 13 samples.

Results

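The claudin and epithelial junction genes described here were 10 genes picked by symbol from a count table of 24421 gene symbols: Cldn1, Cldn3, Cldn4, Cldn7, Cldn8, Ocln, Tjp1, Tjp3, Cdh1 and Epcam. All 10 passed the filter on low counts in the fit of 13 libraries and in the fit of 11 tumors. RNA came from female FVB/N mice of the 202Mul/J line carrying MMTV-HER2/neu, a rat HER2/Neu transgene under the mouse mammary tumor virus promoter, which acts in mammary epithelium. Every group, glands included, carried this strain background, and the labels give the genotype as wild type beside the strain name. The groups were mammary glands of untreated mice (n = 2), primary tumors of untreated mice (primary untreated, n = 3) and primary tumors of mice given stavudine in drinking water at 1 mg/mL (primary STV, n = 3). Recurrent tumors had regrown while the mice were still being injected with the HSP90 inhibitor 17-DMAG at 20 mg/kg, as the methods of the study give it, either without stavudine (recurrent DMAG, n = 3) or with it (recurrent DMAG+STV, n = 2). Stavudine (STV) is a nucleoside inhibitor of reverse transcriptase. The recurrent tumors thus differed from the primary tumors both in regrowth and in ongoing exposure to 17-DMAG, and these cannot be told apart. The age of the animals at collection, and whether each tumor came from a separate mouse, were not given in the sources used here, nor was the start of stavudine for each tumor, so p-values measure the spread between these samples.

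Tight junctions seal the space between neighbouring epithelial cells near their apical side, and below them lie the adherens junctions and the desmosomes. Claudins and occludin (Ocln) cross the membrane and form the seal, the zonula occludens proteins (Tjp1 and Tjp3) tie them to actin, E-cadherin (Cdh1) is the adhesion molecule of the adherens junction, and Epcam is an epithelial surface protein that binds claudins such as Cldn7 and protects them from breakdown. In the mammary gland these proteins separate milk from the interstitial fluid, and repressors of the Snail, Zeb and Twist families lower Cdh1 and several claudins when epithelial cells take on mesenchymal traits.

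Levels are given as CPM, counts scaled to a common library size with trimmed mean of M-values (TMM) factors. Library totals ran from 39921388 to 56887708 counts, and the lowest count of any of the 10 genes in any library was 172, against a floor of 3 counts that equalled 0.0587 to 0.107 CPM. Floors cover counting error only. Gland 2 stood apart: its TMM factor was 0.493 against 0.999 to 1.12 elsewhere, and its 6 milk protein genes summed to 692397 CPM against 27095 CPM in gland 1 and 4598 to 23348 CPM in the tumors. Gland 1 held 142 CPM of 6 lymphocyte markers, against 1.47 to 5.28 CPM in the other libraries. Among the tumors, recurrent DMAG 1 had the highest sum of 6 fibroblast and mesenchymal markers, 5669 CPM against 259.6 to 1762 CPM in the others. Recurrent DMAG+STV 2 had 1365 CPM of 6 skeletal muscle markers, primary untreated 1 had 836 CPM and recurrent DMAG 3 had 412 CPM. The other tumors had 0.737 to 139 CPM of them. The luminal keratins Krt8 and Krt18 summed to 492 to 1386 CPM in the tumors and to 564 and 434 CPM in the glands. These 2 luminal epithelial markers were thus present in every library. Krt7 was at 9.23 to 82.1 CPM in the tumors and 16.2 and 6.71 CPM in the glands. Krt19 differed, at 81.3 and 234 CPM in the glands against 0.253 to 7.00 CPM in 10 tumors and 41.0 CPM in recurrent DMAG 1. In whole tissue, fewer epithelial cells and less RNA per cell cannot be told apart.

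The stretches before the transcription start are shown for 3 of the genes: Cldn3 and Cldn4, whose genes lie 39279 bases apart on chromosome 5 but whose levels spread very differently over the tumors, and Epcam, which had the highest level of the 10 and the smallest p-value of them in 4 of the 6 tumor contrasts. Each is the 250 bases before the RefSeq start of the GRCm38.p6 build, written 5′ to 3′ on the strand of the gene. Capitals mark the E-box letters CACCTG or CAGGTG, the same site read on either strand, which Snail and Zeb proteins are known to bind.
Cldn3, chr5:134985964-134986213, plus strand: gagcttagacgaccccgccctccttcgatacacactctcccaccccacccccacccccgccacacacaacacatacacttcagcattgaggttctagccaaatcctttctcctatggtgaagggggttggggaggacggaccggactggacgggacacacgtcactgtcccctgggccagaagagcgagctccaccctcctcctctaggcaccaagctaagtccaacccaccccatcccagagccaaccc
Cldn4, chr5:134946935-134947184, minus strand: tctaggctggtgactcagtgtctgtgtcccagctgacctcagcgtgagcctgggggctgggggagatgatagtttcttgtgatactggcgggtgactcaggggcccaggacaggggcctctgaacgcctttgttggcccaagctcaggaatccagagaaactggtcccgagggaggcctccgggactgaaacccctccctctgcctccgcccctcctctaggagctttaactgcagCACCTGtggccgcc
Epcam, chr17:87635729-87635978, plus strand: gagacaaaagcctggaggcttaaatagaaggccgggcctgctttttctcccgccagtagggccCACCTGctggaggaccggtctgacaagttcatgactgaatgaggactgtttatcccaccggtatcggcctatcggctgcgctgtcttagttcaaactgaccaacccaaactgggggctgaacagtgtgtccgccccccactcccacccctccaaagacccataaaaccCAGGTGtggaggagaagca
The Cldn3 stretch held no E-box of these letters, Cldn4 held 1, starting 14 bases before the start site, and Epcam held 2, starting 187 and 19 bases before it. Promoter entries matched 8 of the 10 genes, with 11 start sites between them, and Cdh1 and Cldn8 had no entry. The E-box letters were in 6 of the 11 stretches, from Cldn4, Cldn7, Epcam, Ocln and Tjp3. Tjp3 gave 2 of them, so these were 5 of the 8 genes. Of the 32851 stretches of the same length in the whole table, 17.2% held the letters. G and C made up 43.2% to 69.2% of the 11 stretches, against a median of 52.4% over all. The part of this in the E-box count was not tested. The letters AACCGGTT, a core bound by Grainyhead-like factors that are known to act on Cdh1 and claudin genes, were in 0 of the 11 and in 0.116% of all. These are matches of letters and no evidence of binding.

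Per kilobase of exon, Epcam was the most abundant of the 10 genes, with a mean over the 11 tumors of 491 CPM per kb and a range of 194.9 to 599 CPM per kb. Next came Cldn3 at 116 CPM per kb, Cdh1 at 81.7, Cldn7 at 40.7, Tjp1 at 31.8, Cldn1 at 23.1, Cldn8 at 16.2, Cldn4 at 14.5, Ocln at 11.02 and Tjp3 at 9.89 CPM per kb. The range of Epcam did not overlap that of Cldn3, and the range of Cdh1 did not overlap that of Cldn7. Cldn3 was above Cdh1 in 11 of 11 tumors although their ranges overlapped. From Cldn7 downward each neighbouring pair overlapped, and the higher gene of a pair was the higher one in 6 to 9 of the 11 tumors.

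Cldn3 is a single-exon gene at chr5:134986214-134987472, plus strand, on GRCm38. Its level was 99.9 and 46.4 CPM in glands 1 and 2 and 109 to 177 CPM in the tumors, with a median of 145 CPM. Both glands lay below every tumor. The log2 fold change of tumors against glands was 0.99 (SE 0.29, edgeR adjusted p = 0.0573), just short of the threshold of 0.05. An antisense gene, Wbscr25, overlaps the Cldn3 exon but counted only 0.285 to 4.09 CPM.

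Cldn4 lies beside it at chr5:134945119-134946934, minus strand, also in 1 exon. Both claudins are barrier-forming proteins that also act as receptors of Clostridium perfringens enterotoxin. Cldn4 was at 16.5 and 12.5 CPM in the glands and at 3.51 to 59.0 CPM in the tumors, so the glands lay inside the tumor range (log2 0.62, SE 0.71, edgeR adjusted p = 0.579). The ratio of the highest to the lowest tumor was 16.8 for Cldn4 and 1.63 for Cldn3. Among the 12909 genes with a mean of at least 2 CPM in the tumors the median ratio was 1.94, and Cldn4 stood at the 95.6th percentile and Cldn3 at the 32.8th.

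Cldn1, a claudin needed for the skin barrier (chr16:26356642-26371841, minus strand, 4 merged exons), was at 58.8 and 15.8 CPM in the glands and 38.8 to 144 CPM in the tumors (log2 0.93, SE 0.60, edgeR adjusted p = 0.316). Gland 1 lay among the tumors and gland 2 below them. Cldn7, the partner of Epcam on the lateral membrane (chr11:69964779-69967885, plus strand, 5 merged exons), was at 42.5 and 86.6 CPM in the glands and 37.6 to 83.3 CPM in the tumors. Its log2 fold change was -0.10 (SE 0.27, edgeR adjusted p = 0.832), and it was positive with limma voom, with library totals alone and without gland 2.

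Cldn8, a claudin of tight distal kidney and gut epithelia (chr16:88560828-88563183, minus strand, 1 exon), was called lower in tumors. It was at 39 CPM in gland 1 and 202 CPM in gland 2, and at 17.2 to 54.5 CPM in the tumors with a median of 37.4 CPM. Gland 1 lay inside the tumor range and gland 2 alone lay above it. The log2 fold change was -1.66 (SE 0.43, edgeR adjusted p = 0.0363), and without gland 2 it was 0.05 with an adjusted p of 0.977. The call was also lost when any 1 of 8 tumor libraries was left out, with log2 values of -1.70 to -1.61 and adjusted p of 0.0509 to 0.0667.

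Ocln, the 4-pass membrane protein of the tight junction strand (chr13:100496507-100552718, minus strand, 10 merged exons), was at 40.6 and 44.1 CPM in the glands and 32.2 to 59.9 CPM in the tumors. Tjp1, which encodes the scaffold ZO-1 (chr7:65296165-65527781, minus strand, 28 merged exons), was at 224 and 203 CPM in the glands and 185 to 253 CPM in the tumors. Both genes overlapped between glands and tumors, with log2 fold changes of 0.10 (SE 0.19) for Ocln and 0.07 (SE 0.12) for Tjp1 and edgeR adjusted p of 0.763 and 0.721. The 95% intervals were -0.28 to 0.47 for Ocln and -0.16 to 0.29 for Tjp1. Tjp1 varied least of the 10 genes over the tumors, by a ratio of 1.37.

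Tjp3, which encodes ZO-3 (chr10:81273207-81291581, minus strand, 22 merged exons), fell in tumors relative to glands. It was at 67.7 and 51.0 CPM in the glands and 21.5 to 48.3 CPM in the tumors with a median of 29.8 CPM, and no tumor reached a gland. The log2 fold change was -0.93 (SE 0.20, edgeR adjusted p = 0.0180). The call was lost without gland 1 (log2 -0.67, adjusted p = 0.0943) and without gland 2 (log2 -1.03, adjusted p = 0.0682). Exons of Apba3 overlap it on the other strand, at 17.4 to 26.8 CPM in the tumors and 20.2 and 32.3 CPM in the glands (Apba3 log2 -0.24, edgeR adjusted p = 0.353). The strand setting of the counting was not stated, so reads shared by these 2 genes could not be resolved.

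Cdh1 (chr8:106603351-106670246, plus strand, 16 merged exons) was at 285 and 189 CPM in the glands and 290.4 to 447 CPM in the tumors, with no overlap. Its log2 fold change was 0.62 (SE 0.19, edgeR adjusted p = 0.0610). Epcam (chr17:87635979-87651129, plus strand, 10 merged exons) was at 655 and 493 CPM in the glands and 402 to 1236 CPM in the tumors, with a median of 1109 CPM. Of the tumors, 10 exceeded both glands and recurrent DMAG+STV 2 was below both, and the log2 fold change was 0.71 (SE 0.22, edgeR adjusted p = 0.0646). Cldn3, Cdh1 and Epcam passed the threshold in the higher direction with DESeq2, with limma voom, without gland 1 (log2 1.68, 0.98 and 0.97) and without recurrent DMAG 1 (log2 1.03, 0.63 and 0.74). Epcam also passed without recurrent DMAG+STV 2 (log2 0.81, adjusted p = 0.0281).

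**Figure D1:**
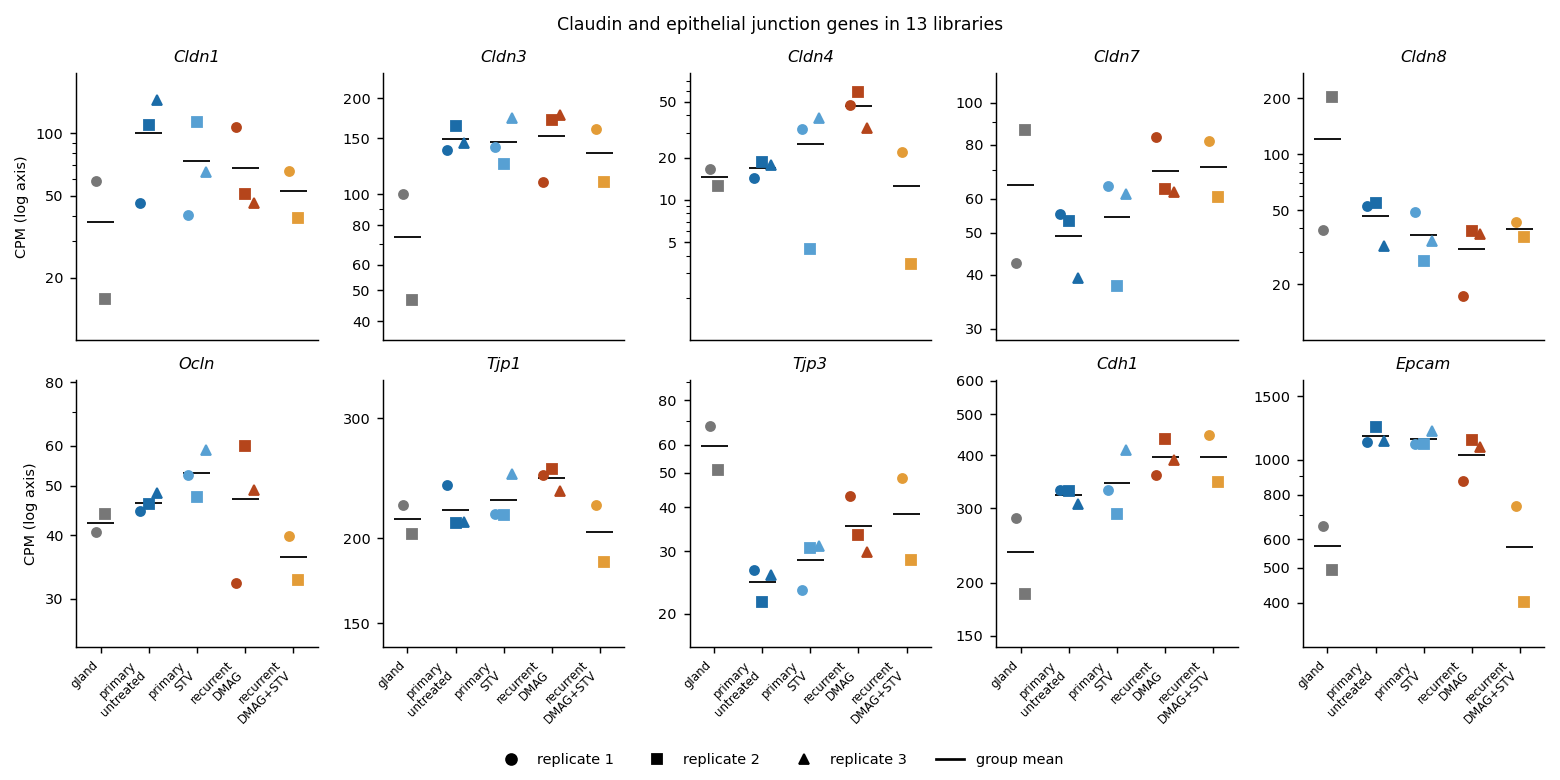
CPM (log axis) of the 10 junction genes in each library by group, with replicate number as marker shape and the group mean as a line. Tjp3 was higher in both glands than in every tumor, Cldn3 and Cdh1 were lower in both glands, and Epcam was lowest in recurrent DMAG+STV among the tumor groups.

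In all, tumors against glands gave 2 of 10 junction genes called lower and 0 called higher. Over the 17135 genes tested, 10.4% were called, 1.6% higher and 8.81% lower. An unadjusted p under 0.05 was reached by 5 of the 10, against 29.6% of all genes, and the groups did not overlap for 3 of the 10, against 11.5%. The median log2 fold change was 0.36 over the 10 genes and -0.02 over all genes. The count of junction genes called was 0 with library totals alone, a scaling that moved the median of all genes by 0.35 on the log2 scale, and 5 with DESeq2 or without recurrent DMAG 1. DESeq2 called 18.6% of all genes that it gave an adjusted p in this contrast, and limma voom called 9%. Without 1 library, the count was 0 without gland 2, 4 without gland 1 and 1 without any of the 7 tumor libraries primary untreated 1, 2 or 3, recurrent DMAG 3, primary STV 2 or 3 and recurrent DMAG+STV 1. Sums of 6 adipocyte markers were 900 and 751 CPM in the glands and 7.65 to 129 CPM in the tumors, and all 6 were called lower in tumors. Gland 2 also held 1544 CPM of the 6 skeletal muscle markers, against 5.59 CPM in gland 1. Sums of the 6 basal epithelium markers were 225 and 509 CPM in the glands and 18.2 to 252 CPM in the tumors. The part of the fat, milk, muscle, lymphocyte and basal epithelium RNA in the values above was not tested. With the milk, muscle and adipocyte genes removed before scaling, Tjp3 gave -0.93 and Cldn8 -1.66, both still called.

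**Figure D2:**
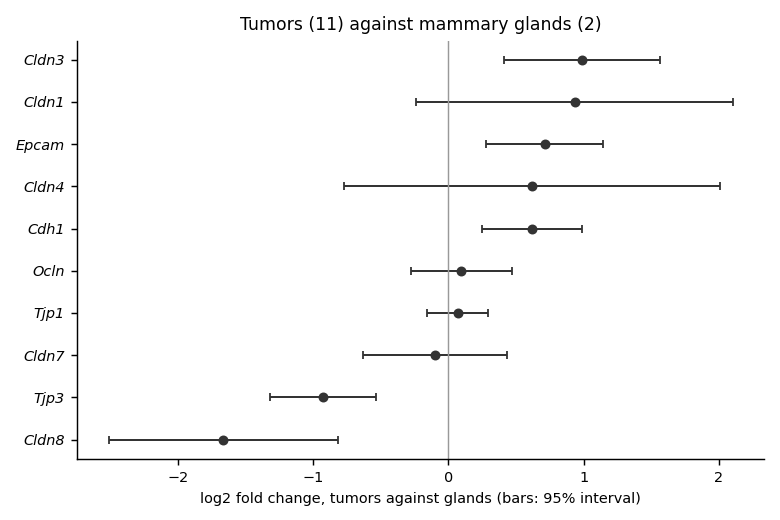
Log2 fold change of 11 tumors against 2 glands for each junction gene from edgeR, with bars for the 95% interval. Tjp3 (-0.93) and Cldn8 (-1.66) were called lower, and Cldn3 (0.99), Epcam (0.71) and Cdh1 (0.62) had intervals above 0 with adjusted p of 0.0573 to 0.0646.

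Whether stavudine alone went with a change in these genes was asked in primary tumors, primary STV against primary untreated. No junction gene separated the 2 groups: 0 of 10 were called by edgeR, DESeq2 or limma voom, 0 of 10 had an unadjusted p under 0.05, and the groups overlapped for all 10. Over all genes edgeR and limma voom called 0% and DESeq2 0.107%, 3.76% had an unadjusted p under 0.05 and 10.8% did not overlap. The log2 fold changes ran from -0.46 for Cldn1 to 0.54 for Cldn4. Epcam was at 1118, 1236 and 1130 CPM in primary untreated and 1109, 1108 and 1200.5 CPM in primary STV, a log2 difference of -0.04 with a 95% interval of -0.45 to 0.37. Cdh1 was at 331, 329 and 307 CPM against 331, 290.4 and 411 CPM, a log2 difference of 0.08 with an interval of -0.22 to 0.38. The wide case was Cldn4, at 14.3, 18.7 and 17.7 CPM in primary untreated and 31.7, 4.48 and 38.4 CPM in primary STV. Its primary STV libraries lay on both sides of the untreated ones, and the interval of the log2 difference was -0.92 to 1.998.

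Recurrent DMAG against primary untreated tumors asked what went with regrowth in the absence of stavudine. Of the 10 genes, 0 were called by edgeR, DESeq2 or limma voom and 1, Tjp3, had an unadjusted p under 0.05 in edgeR. Of all genes, edgeR and limma voom called 0%, DESeq2 called 0.413%, and 9.69% had such a p. Without overlap and higher in recurrent DMAG were 4 of 10 (Cldn4, Cldn7, Tjp3 and Cdh1), against 15.1% of all genes without overlap in either direction. Cldn4 was at 47.5, 59.0 and 32.5 CPM in recurrent DMAG and at 14.3 to 18.7 CPM in primary untreated (log2 1.43, SE 0.76, edgeR adjusted p = 0.523). Every recurrent DMAG tumor was thus above every primary untreated tumor, while primary STV 3, at 38.4 CPM, lay within the recurrent range. Cldn7 was at 83.3, 63.1 and 62.0 CPM against 55.3, 53.2 and 39.4 CPM (log2 0.48, SE 0.23, edgeR adjusted p = 0.514). Tjp3 was at 43.0, 33.3 and 29.8 CPM against 26.7, 21.5 and 25.8 CPM (log2 0.51, SE 0.22, edgeR adjusted p = 0.510). Cdh1 was at 360 to 438 CPM against 307 to 331 CPM (log2 0.28, SE 0.15, edgeR adjusted p = 0.529). Of the other 6 genes, Cldn1, Cldn8 and Epcam had negative log2 values, the lowest being -0.60 for Cldn8. Leaving out any 1 library kept the sign of Cldn4, Cldn7, Tjp3 and Cdh1, with Cldn4 between 1.26 and 1.63.

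Under stavudine, recurrent DMAG+STV was compared with primary STV. Epcam was the gene that differed most by p: it was at 743 and 402 CPM in recurrent DMAG+STV and at 1109, 1108 and 1200.5 CPM in primary STV, with no overlap. The log2 fold change was -0.99 (SE 0.24, edgeR adjusted p = 0.313), which did not pass, while DESeq2 gave -0.99 with an adjusted p of 0.0103. Ocln was at 39.8 and 32.7 CPM against 52.4, 47.7 and 58.9 CPM, also without overlap (log2 -0.54, SE 0.22, edgeR adjusted p = 0.472). In all, 0 of 10 genes were called by edgeR, 1 by DESeq2 (Epcam) and 0 by limma voom, and 2 of 10 had an unadjusted p under 0.05 in edgeR. Of all genes, edgeR and limma voom called 0%, DESeq2 called 327 or 1.95%, and 10.1% had such a p. The 2 genes without overlap compare with 35.3% of all genes in this smaller contrast. Without recurrent DMAG+STV 1 the Epcam value was -1.51 (edgeR adjusted p = 0.0242), and without recurrent DMAG+STV 2 it was -0.62 (edgeR adjusted p = 1.00). Here a single library stands for its group and its spread is taken from the other groups. Cdh1, at 447 and 345 CPM in recurrent DMAG+STV, was not lower than in primary STV, and its log2 value was 0.21 with an interval of -0.13 to 0.54.

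**Figure D3:**
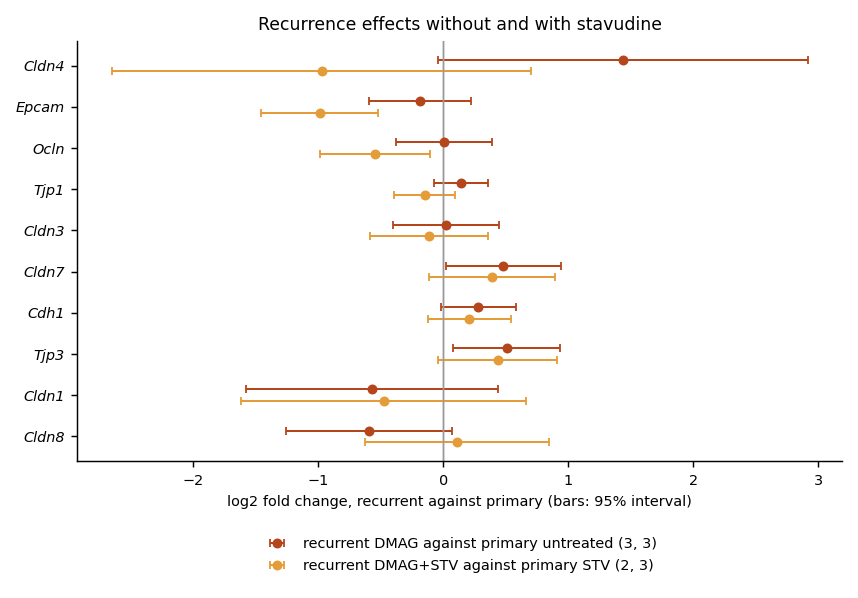
Log2 fold change of recurrent against primary tumors for each junction gene, without stavudine (3 against 3) and with it (2 against 3), from edgeR with bars for the 95% interval. Cldn4 was at 1.43 and -0.97 and Epcam at -0.19 and -0.99, while Cldn7, Cdh1 and Tjp3 were positive in both.

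Among recurrent tumors, DMAG+STV against DMAG gave 0 of 10 genes called by edgeR and by limma voom and 1, Epcam, by DESeq2 (log2 -0.85, adjusted p = 0.0416). Epcam was at 874, 1136 and 1088 CPM in recurrent DMAG, all above both DMAG+STV tumors, and edgeR gave a log2 of -0.84 (SE 0.24, adjusted p = 0.399). It was -1.37 (edgeR adjusted p = 0.0312) without recurrent DMAG+STV 1 and -0.48 (edgeR adjusted p = 1.00) without recurrent DMAG+STV 2. Cldn4 was at 21.7 and 3.51 CPM in recurrent DMAG+STV and at 32.5 to 59.0 CPM in recurrent DMAG, a log2 of -1.87 (SE 0.89, edgeR adjusted p = 0.668) that was -3.73 without the first and -1.09 without the second of the DMAG+STV tumors. Tjp1 was at 224 and 185 CPM against 235 to 253 CPM (log2 -0.26, SE 0.12, edgeR adjusted p = 0.679). These 3 of 10 genes did not overlap, against 21.5% of all genes, and 1 of 10 had an unadjusted p under 0.05 in edgeR, against 7.84%. Over all genes edgeR and limma voom called 0%, and DESeq2 called 270 or 1.77%.

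Averaged over both arms, recurrent tumors against primary tumors gave 0 of 10 genes called by edgeR and by limma voom, and 1, Epcam, by DESeq2 (log2 -0.58, adjusted p = 0.0333). An unadjusted p under 0.05 was reached by 3 of 10 in edgeR, against 13.6% of all genes. The 3 were Epcam (log2 -0.59, SE 0.16), Tjp3 (log2 0.47, SE 0.16) and Cldn7 (log2 0.43, SE 0.17), with edgeR adjusted p of 0.287, 0.314 and 0.338. Over all genes edgeR and limma voom called 0%, and DESeq2 called 416 or 2.54%. For 0 of 10 genes did all 5 recurrent tumors separate from all 6 primary tumors, against 1.34% of all genes. Epcam was -0.39 without recurrent DMAG+STV 2, and Tjp3 was 0.26 without recurrent DMAG+STV 1. The interaction, which asks whether the recurrence effect differed with stavudine, gave 0 of 10 called by any of the 3 tools and 1 of 10 at an unadjusted p under 0.05 in edgeR. Of all genes, edgeR and limma voom called 0%, DESeq2 called 1.05%, and 7.84% had such a p. It was -0.80 (SE 0.31) for Epcam, -2.41 (SE 1.15) for Cldn4 and -0.55 (SE 0.30) for Ocln, with edgeR adjusted p of 0.600, 0.654 and 0.696. Comparisons that share a tumor group are not independent of each other.

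Markers of other cells moved with some of these values. In recurrence averaged over both arms, the 6 macrophage markers all had positive log2 values and 5 had an unadjusted p under 0.05 in edgeR. Their sums were 235 and 221 CPM in recurrent DMAG+STV against 126 to 144 CPM in primary STV, and 135 to 478 CPM in recurrent DMAG against 146 to 174 CPM in primary untreated. The 6 fibroblast and mesenchymal markers were also all positive there, 4 of them with such a p. Of all genes, 13.6% had such a p in this contrast. The fibroblast and mesenchymal sums in recurrent DMAG+STV 1 and 2, 1261 and 1762 CPM, were above the highest primary tumor, 1035 CPM. In recurrent DMAG 1, 2 and 3 they were 5669, 355 and 977 CPM, against 439 to 1035 CPM in primary untreated. The part of these markers in the differences between recurrent and primary tumors was not tested. Recurrent DMAG+STV 2, the lowest tumor for Epcam, Cldn1, Cldn4 and Tjp1, was also high in the 6 skeletal muscle markers (1365 CPM), in the 6 basal epithelium markers (252 CPM against 18.2 to 185 CPM in the other tumors) and in the fibroblast and mesenchymal markers (1762 CPM). Primary untreated 1 held 836 CPM of the same muscle markers with Epcam at 1118 CPM. It held only 56.9 CPM of the basal epithelium and 1035 CPM of the fibroblast and mesenchymal markers. Cdh1 in recurrent DMAG+STV 2, at 345 CPM, was the median of the 11 tumors. The part of all these markers in the low Epcam of recurrent DMAG+STV 2 was not tested. Recurrent DMAG 1, the lowest tumor for Cldn3, Cldn8 and Ocln, was the highest in fibroblast and mesenchymal markers and had the highest Krt8 plus Krt18 sum, 1386 CPM. Relative to Krt8 plus Krt18, Epcam was 0.631 in recurrent DMAG 1, 0.873 and 0.817 in the recurrent DMAG+STV tumors and 1.05 to 1.78 in the other 8 tumors.

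A comparison within each library, made after the values were seen and given without a test, set Epcam against Cdh1, since both are epithelial. The ratio of Epcam CPM to Cdh1 CPM was 3.38, 3.76 and 3.68 in primary untreated tumors and 3.35, 3.82 and 2.92 in primary STV tumors. It was 2.43, 2.59 and 2.78 in recurrent DMAG tumors and 1.66 and 1.16 in recurrent DMAG+STV tumors. The recurrent tumors were all below the primary tumors, and the recurrent DMAG+STV tumors were below the recurrent DMAG tumors. Epcam had negative and Cdh1 positive log2 values in both recurrence contrasts, so this order partly follows from the choice of Cdh1. Relative to Krt8 plus Krt18, recurrent DMAG tumors did not separate from primary tumors. Epcam was there at 0.631, 1.32 and 1.69 in recurrent DMAG and 1.05 to 1.78 in primary tumors. In glands 1 and 2 Epcam relative to Krt8 plus Krt18 was 1.16 and 1.13, inside the range of the primary tumors. The ratio of Epcam to Cdh1 was 2.30 and 2.61 in the glands. The share of Epcam in the summed counts of the 10 genes was 32.4% and 39.7% in recurrent DMAG+STV tumors and 45.5% to 55.4% in the other tumors.

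**Figure D4:**
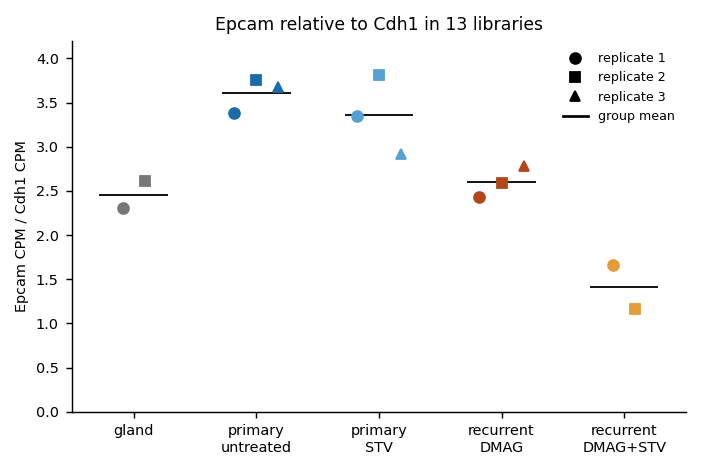
Ratio of Epcam CPM to Cdh1 CPM in each library by group, with group means as lines. Primary tumors lay at 2.92 to 3.82, recurrent DMAG tumors at 2.43 to 2.78 and recurrent DMAG+STV tumors at 1.16 and 1.66. Cdh1 was chosen for the ratio after the values were seen.

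The 10 genes did not vary as 1 block over the tumors. Of the 45 pairs, 28 had a positive Pearson r of log2 CPM over the 11 tumors, with a median of 0.24 and a range of -0.53 (Cldn8 and Tjp3) to 0.79 (Cldn4 and Tjp1), and the points share library composition. The lowest tumor was recurrent DMAG+STV 2 for 4 genes, recurrent DMAG 1 for 3, primary STV 2 for 2 and primary untreated 2 for 1 (Tjp3). The genes whose log2 CPM was most like the mean standardized level of the 10 were sought among 12682 genes over the 11 tumors. They were Srgap3 (r = 0.954), Fxyd6 (r = 0.936), Ctdsp1 (r = 0.933), Tbl1x (r = 0.917) and Tmem98 (r = 0.915). Each of these 5 was lowest in recurrent DMAG+STV 2, and Srgap3 ran from 209.9 to 379 CPM.

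Of 18 other claudins in the table, 7 had a median of at least 1 CPM in the tumors and 10 passed the filter there. Cldn10, a claudin that forms ion-conducting pores, was at 439 CPM in primary STV 2 and had a median of 44.2 CPM, and Cldn2, the cation pore claudin of leaky epithelia, was at 139 CPM in primary STV 2 and 122 CPM in recurrent DMAG+STV 2 with a median of 14.96 CPM. Cldn4 was lowest in these same tumors, at 4.48 and 3.51 CPM, a pairing chosen after the values were seen. Of all genes, edgeR called 8.81% lower and 1.6% higher in tumors against glands. Of 11 tested other claudins it called 2 lower and 0 higher. They were Cldn15, a pore claudin of the gut (log2 -2.37, SE 0.39, edgeR adjusted p = 0.00573), and Cldn5, the claudin of endothelium (log2 -2.14, SE 0.45, edgeR adjusted p = 0.0157). Cldn15 was at 4.06 and 5.92 CPM and Cldn5 at 9.05 and 4.07 CPM in the glands, above all tumors. The 5 endothelium markers all had negative values as well, with a median log2 of -1.24, 1 of them called lower, and sums of 259.7 and 242 CPM in the glands and 63.0 to 260.3 CPM in the tumors. Their part in the Cldn5 value was not tested.

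The counts of the next lists are to be read against the 1.6% of all genes called higher and 8.81% called lower in tumors. Among 19 other tight junction genes, 0 were called higher and 2 lower in tumors: the scaffold Magi2 (log2 -1.68, SE 0.40) and the adhesion molecule Jam3 (log2 -1.59, SE 0.44), with edgeR adjusted p of 0.0264 and 0.0453. Of 15 polarity complex genes, 1 was called lower, Pard6g (log2 -1.50, SE 0.30, edgeR adjusted p = 0.0132). Of 12 adherens junction genes, 2 were called higher and 0 lower, the catenins Ctnnd1 (log2 0.67, SE 0.16) and Ctnna1 (log2 0.56, SE 0.16), which bind the Cdh1 complex, with edgeR adjusted p of 0.0297 and 0.0454. Of 8 desmosome genes, all had positive values, with a median of 0.85 against -0.02 over all genes, and 1 was called, the plakophilin Pkp3 (log2 1.12, SE 0.31, edgeR adjusted p = 0.0447). Of 15 epithelial regulators, 1 was called higher, the recycling GTPase Rab25 (log2 0.63, SE 0.15, edgeR adjusted p = 0.0254). Of 7 repressors of Cdh1, 6 had negative values and 1 was called lower, Twist2 (log2 -2.61, SE 0.69, edgeR adjusted p = 0.0377), at 0.969 and 0.856 CPM in the glands and 0 to 0.671 CPM in the tumors. The 6 fibroblast and mesenchymal markers all had negative values too, 1 of them called lower, with sums of 2478 and 2041 CPM in the glands against 259.6 to 1762 CPM in 10 tumors and 5669 CPM in recurrent DMAG 1. Their part in the values of the repressors, and that of the endothelium markers, was not tested. Without gland 2 only Cldn5 of the 10 genes called in these lists kept its call (log2 -2.52, edgeR adjusted p = 0.0357). Without gland 1 the calls of Cldn5, Magi2, Jam3 and Twist2 were lost, with log2 values of -1.42, -1.31, -1.34 and -2.49. Calls of Jam3, Ctnna1, Pkp3 and Twist2 were also lost without single tumors, in 9 to 11 of the 13 omissions in all. Ctnnd1 lost its call without primary untreated 3, primary STV 3 or recurrent DMAG+STV 1, with edgeR adjusted p of 0.0531 to 0.0538, and Magi2 lost it without recurrent DMAG+STV 1 (edgeR adjusted p = 0.0570).

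Between tumor groups, edgeR and limma voom called 0 genes of any of these 7 lists in any of the 6 contrasts. DESeq2 called 3: Grhl3, an epithelial transcription factor, higher in recurrence without stavudine, and Cldn10 lower and Snai1 higher in recurrence averaged over both arms. These were 1 of 15 epithelial regulators against 0.413% of all genes called by DESeq2, and 1 of 10 other claudins tested and 1 of 7 repressors against 2.54%. Grhl3 was low, at 4.68, 0.960 and 0.231 CPM in recurrent DMAG 1, 2 and 3 and 0.159 to 0.261 CPM in primary untreated. Recurrent DMAG 3 thus lay inside the primary untreated range. At an unadjusted p under 0.05 in edgeR, the lists held 0 to 5 genes each per contrast, of 7 to 19 tested. The 5 were of 15 epithelial regulators in recurrence averaged over both arms, against 13.6% of all genes. In primary STV against primary untreated tumors the gene of smallest p in each list had a log2 fold change of 1.88 for Cldn2, -0.29 for Ybx3, 0.45 for the polarity gene Inadl, -0.27 for Pkp4, -0.43 for Perp, -0.53 for Ovol1 and -1.95 for Twist2, all with an edgeR adjusted p of 1.00. The Cldn2 value was 0.02 without primary STV 2. The Ybx3 value was -0.09 without primary untreated 2. Twist2 was near the floor, at 0 to 0.0870 CPM in primary STV and 0.122 to 0.241 CPM in primary untreated.

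In recurrence without stavudine the corresponding genes were Cldn15 (log2 -1.24), Magi2 (1.07), the atypical protein kinase C gene Prkci (0.64), Pkp3 (0.31), the epithelial factor Elf3 (1.28) and Snai1 (2.23), with edgeR adjusted p of 0.509 to 0.523. Recurrent DMAG 1 was far above the other tumors for Snai1, at 11.3 CPM against 0.441 to 4.81 CPM. Without that tumor the log2 values were 0.39 for Snai1 and 0.45 for Magi2. In recurrence under stavudine they were Cldn10 (log2 -2.97), Magi1 (-0.52), Pard3b (-1.34), Pkp4 (-0.46), Pkp2 (-0.32), the epithelial factor Ehf (-1.08) and Snai2 (2.24), with edgeR adjusted p of 0.380 to 0.510. Cldn10 was -1.13 without primary STV 2, and Snai2 was -0.22 without recurrent DMAG+STV 2, which held 8.13 CPM of it against 0.402 to 3.47 CPM in the other tumors.

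The 7 repressors of Cdh1 all had positive log2 values in recurrence without stavudine and in recurrence under stavudine, with medians of 0.82 and 1.29 against -0.01 and 0.01 over all genes. Their summed level was 130 CPM in recurrent DMAG 1, 67.4 CPM in recurrent DMAG+STV 2 and 26.1 to 45 CPM in the other tumors, so 2 of the 5 recurrent tumors stood above the primary tumors. These are the same tumors that were highest in fibroblast and mesenchymal markers. Cdh1 itself was at 360 and 345 CPM in them, inside the range of 290.4 to 447 CPM of all tumors.

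Among recurrent tumors, DMAG+STV against DMAG, the genes of smallest p were Cldn12 (log2 0.40), Magi1 (-0.51), Prkci (-0.77), Pkp4 (-0.62), Evpl (-0.71), the protease inhibitor Spint2 (-0.31) and Snai2 (1.50), with edgeR adjusted p of 0.389 to 0.786. Pkp4 passed without recurrent DMAG+STV 1 (log2 -0.98, edgeR adjusted p = 0.0431), and Snai2 was -0.96 without recurrent DMAG+STV 2. In recurrence averaged over both arms they were Cldn10 (log2 -2.25), Magi1 (-0.36), Pard3b (-0.77), the nectin Pvrl1 (0.50), Pkp2 (-0.22), Elf3 (0.85) and Snai1 (2.09), with edgeR adjusted p of 0.305 to 0.380. Cldn10 was -1.32 without primary STV 2 and Snai1 was 1.16 without recurrent DMAG 1. For the interaction they were Cldn12 (log2 0.37), Prkci (-1.18), Pvrl4 (-0.78), Pkp1 (-1.86), Grhl3 (-3.25) and Snai2 (1.86), with edgeR adjusted p of 0.471 to 0.758. Grhl3 was -1.57 without recurrent DMAG 1.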

How the data were processed

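Total RNA of 13 libraries was depleted of ribosomal RNA and sequenced by the authors with a kit that marks strand. The deposited values were raw counts of reads per gene symbol. According to the methods of the study, STAR aligned the reads to GRCm38, a mouse genome build, and featureCounts counted them. The processing notes of the submitters name Subread 1.6.2, and the strand setting was not given in the sources used here.

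Counts were tested in R 4.3.3 with edgeR 4.0.16 (filterByExpr, TMM factors, robust quasi-likelihood test), two-sided, with Benjamini-Hochberg adjustment over all genes of a contrast and a threshold of 0.05. The gland contrast used 13 libraries and 17135 genes. The 6 contrasts between tumor groups used the 11 tumors and 16870 genes. SE was the absolute log2 fold change divided by the square root of F, and 95% intervals were 1.96 SE to either side. This multiplier is too small for so few samples, so all these intervals are approximate and too narrow. Some exclude 0 at an unadjusted edgeR p above 0.05. In recurrence without stavudine, Cldn7 had an interval of 0.02 to 0.94 with an edgeR p of 0.0689. Log2 CPM values used a prior count of 2. DESeq2 1.42.0, limma 3.58.1 (voom), other scalings and filters and the omission of each library were alternatives. The scripts were tested on simulated data. Gene positions and exon lengths came from GENCODE on GRCm38, and promoter stretches from RefSeq.

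The 10 junction genes and all lists were chosen with earlier results of these data known. The rule for named genes took the 10 in every contrast. From each other junction list it took up to 3 called genes, or the gene of smallest p where none was called. In 2 cases the gene so taken is not reported here. It also took the 5 genes most like the mean of the 10. The 17 lists were the 10 genes, 7 lists of related junction genes, regulators and repressors, and markers of luminal and basal epithelium, milk, fat, muscle, lymphocytes, macrophages, endothelium and fibroblasts.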

Additional observations from a re-analysis of the deposited data

How the results depend on the processing

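The number of junction genes called in tumors against glands was 2. It was 5 with DESeq2, 4 with limma voom, 0 with library totals alone and 0 with the replicate block, and 0 to 5 when 1 library was left out, whether a tumor or a gland. It was 0 in the main fit of the other contrasts. DESeq2 gave 1 for recurrence under stavudine, 1 for stavudine in recurrent tumors and 1 for recurrence averaged over both arms, each time Epcam. Leaving out 1 library gave 0 to 1 for recurrence under stavudine and 0 to 1 for stavudine in recurrent tumors.

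The log2 fold change of Cldn7 in tumors against glands, -0.10, turned positive with limma voom (0.000125), with library totals alone (0.490) and on leaving out gland 2, from -0.484 to 0.589 over the omissions. Cldn8 ran from -2.37 to 0.0466 over the omissions. Snai2 ran from -0.22 to 3.08 in recurrence under stavudine, from -0.96 to 2.77 in stavudine in recurrent tumors and from -0.61 to 3.12 in the interaction. Tjp3 in tumors against glands lost its call with library totals alone (log2 -0.62, edgeR adjusted p = 0.269). Cldn8 lost its call with limma voom (-1.23) and with library totals alone (-0.84). The cause of these moves was not tested.

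Samples with the same replicate number did not deviate together: of 15 pairs, 3 had a correlation of deviations above 0.1, with a range of -0.29 to 0.22. The fit with the replicate block lost the calls of Tjp3 (log2 -0.92, edgeR adjusted p = 0.0531) and Cldn8 (-1.49, edgeR adjusted p = 0.141) and called 371 genes in tumors against glands in place of 1785. Of the related genes called in tumors against glands, the block also lost Cldn5, Magi2, Jam3, Pard6g, Ctnnd1, Ctnna1, Pkp3, Rab25 and Twist2, with edgeR adjusted p of 0.0592 to 0.130, and library totals alone lost the same 9, with 0.0880 to 0.221, while Cldn15 was called in both. Ctnna1 also lost its call with no filter on low counts (edgeR adjusted p = 0.0519). In tumors against glands DESeq2 called 3238 genes, limma voom 1542 and library totals alone 489.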
